A study of Rattus norvegicus with 16 samples.

Results

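The colony-stimulating factors and their receptors were followed in rat dorsal root ganglia (DRGs), the clusters of sensory neurons beside the spinal cord, after tumor cell implantation (TCI) into the tibia. The 7 genes were chosen by symbol: the ligands Csf1, Il34 and Csf2 and the receptor genes Csf1r, Csf2ra, Csf2rb and Csf3r. All 7 were found, each listed once, among the 21021 genes of the expression tables. Adult female Sprague-Dawley rats received Walker 256 rat mammary carcinoma cells in the left tibia and were sampled on day 1, 7 or 14. Sham rats were sampled on day 14 only. The labels give phosphate-buffered saline as the sham injection, and the study's methods give boiled tumor cells. Each of the 4 groups held 4 samples, each made by pooling the L3, L4 and L5 ganglia of the implanted side of 1 rat.

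RNA was sequenced, and the level of each gene was deposited as FPKM, the number of sequenced fragments scaled by transcript length and by the mapped fragments of the library. The read depth of a sample is not contained in FPKM, so no counting error was computed. Because the sham samples came from day 14, a difference between day 1 or day 7 and sham cannot be told apart from the time since surgery. Between 13150 and 13805 genes reached 1 FPKM in each sample. The summed FPKM of 13 sensory neuron genes was between 10300 and 18100, so the labelled tissue carried its defining markers. Sample 3 of day 7, which the study left out together with sample 2 of day 1, held 22700 FPKM over 12 skeletal muscle genes, sham sample 4 held 555, and the other samples held between 12.5 and 25.9. Values are printed for all 16 samples, and tests were made on the 14 samples that the study kept, with the result over 16 samples named where it changed the call of a member or of another gene described.

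Colony-stimulating factors are secreted proteins that keep myeloid cells alive and drive their division and maturation. CSF1 and IL-34 are alternative ligands of the receptor tyrosine kinase CSF1R, which is carried by monocytes, macrophages and microglia. GM-CSF, encoded by Csf2, binds a receptor made of the ligand-specific alpha chain (Csf2ra) and the common beta chain (Csf2rb), which the receptors for IL-3 and IL-5 share. G-CSF binds the receptor encoded by Csf3r, best known from neutrophils. In the DRG, resident macrophages lie around the cell bodies of the sensory neurons, and CSF1 made by sensory neurons after nerve injury is a known signal to myeloid cells.

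Tested by limma on log2(FPKM + 1), 3 members passed the cut-offs of the study (a log2 fold change of at least 1 and an adjusted p of at most 0.001) on day 7, all of them receptor genes and all higher than in sham. They were Csf1r, Csf2ra and Csf2rb. The study applied its limits to fold changes from another method, so its counts of genes and those given here are not on the same measure. Of the 14023 genes tested, 1.83% passed the same cut-offs. With a limit of 0.05 on the adjusted p and none on the fold, 6 of the 6 tested members rose on day 7, against 17.9% of all genes called in either direction. On day 14, 1 member (Csf1r) passed the cut-offs, against 0.642% of all genes, and 4 rose at an adjusted p of at most 0.05, against 15.1%. On day 1 no member was called, and with 0% of all genes called by either rule nothing particular to the members follows from that. For day 1, limma's adjusted p was never below 0.736. Before adjustment 734 of the 14023 genes had a limma p under 0.05, near the share of 0.05 expected with no change. The comparisons of the 3 days share the sham samples. In the 14 fitted samples, 6 of the 6 tested members lay wholly above sham on day 7 and 5 on day 14. Among the 14023 genes tested, 3335 lay wholly above sham and 1413 wholly below it on day 7. On day 14 these numbered 1938 and 755, so such separation was common among all genes. Csf2 was too low for the fit, and Csf2rb and Csf3r reached the filter of 1 FPKM in 3 samples only through samples of days 7 and 14, so the counts over tested members lean toward genes that were higher there.

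**Figure D1:**
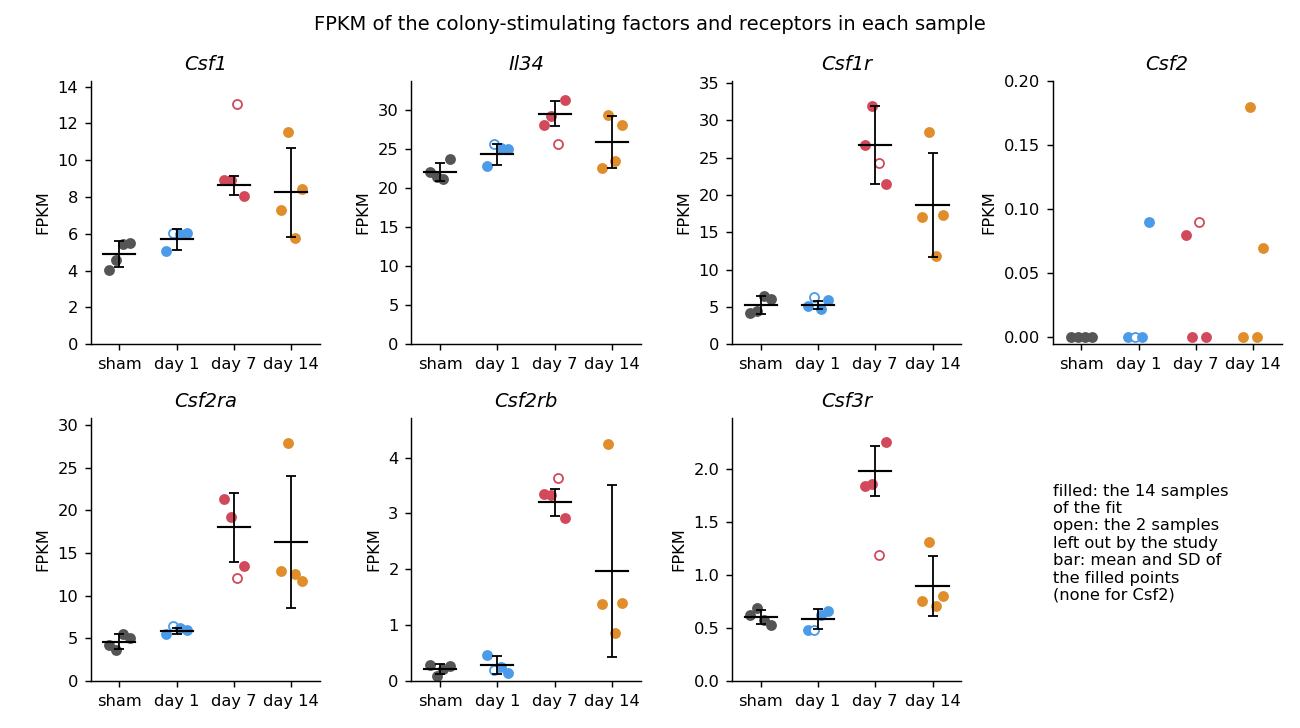
FPKM of the 7 members (vertical axes, each starting at or just under 0) in every sample of sham and of days 1, 7 and 14 after TCI. Filled points are the 14 samples of the fit, open points the 2 samples left out by the study, and bars the mean and SD of the filled points. The receptor genes Csf1r, Csf2ra and Csf2rb sit above every sham sample in all samples of days 7 and 14, while Csf2 stays at or under 0.18 FPKM throughout.

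Csf1 encodes macrophage colony-stimulating factor. It was listed at 4.05, 4.58, 5.46 and 5.50 FPKM in the sham samples and at 5.06, 6.04, 6.01 and 6.02 FPKM on day 1, where the value of 6.04 belongs to the sample left out. On day 7 it reached 8.90, 8.93, 13.04 (the sample left out) and 8.05 FPKM, and on day 14 it was listed at 7.27, 11.52, 5.78 and 8.42 FPKM. Sham and day 1 overlapped, whereas every sample of days 7 and 14 lay above the highest sham sample, on day 14 by a narrow margin in sample 3. The mean was 4.90 ± 0.707 FPKM (SD, n = 4) in sham and 8.63 ± 0.50 FPKM (SD, n = 3) on day 7. Csf1 rose on day 7 by a log2 fold change of 0.71 with an SE of 0.162 (limma, adjusted p = 0.00844). On day 14 the mean was 8.25 ± 2.43 FPKM (SD, n = 4) and the log2 fold change was 0.62 with an SE of 0.15 (limma, adjusted p = 0.0152). That call was lost when sham sample 1 was left out, with a log2 fold change of 0.55 (limma, adjusted p = 0.0507), and when only the sham and day 14 groups were fitted (limma, adjusted p = 0.0628). The difference of 0.19 on day 1 had a 95% confidence interval from -0.16 to 0.54 and did not pass (limma, adjusted p = 0.976).

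Il34, the other CSF1R ligand, was the highest of the 7 genes by mean FPKM in each of the 4 groups. Its values in sham were 22.01, 21.40, 21.19 and 23.78 FPKM. On day 1 they were 22.80, 25.63 (the sample left out), 25.19 and 25.00 FPKM, with only sample 1 inside the range of sham. Day 7 gave 28.11, 29.27, 25.61 (the sample left out) and 31.30 FPKM, all above sham. Day 14 gave 22.55, 29.34, 23.54 and 28.12 FPKM, so that samples 1 and 3 fell within the range of sham and samples 2 and 4 above it. Il34 rose on day 7 by a log2 fold change of 0.40 with an SE of 0.0841 (limma, adjusted p = 0.00529), a ratio of group means of 1.34. The day 14 difference of 0.21 missed the threshold (limma, adjusted p = 0.0855). It passed when day 14 sample 1 (log2 fold change 0.27, limma adjusted p = 0.0287) or sample 3 (log2 fold change 0.25, limma adjusted p = 0.048) was left out.

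Because FPKM is scaled by transcript length, the ligands can be set side by side. Il34 exceeded Csf1 in all 16 samples. The ratio of Csf1 to Il34 was between 0.184 and 0.258 in sham and between 0.222 and 0.241 on day 1. It was between 0.257 and 0.509 on day 7 and between 0.246 and 0.393 on day 14, so both ranges met that of sham only at its upper end. No test was made of these ratios.

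Csf1r, the shared receptor of both ligands, had the largest difference of the members on the log2(FPKM + 1) scale on day 7 and on day 14. The sham samples held 4.12, 4.42, 6.47 and 6.02 FPKM, and the day 1 samples held 5.07, 6.26 (left out), 4.76 and 5.86 FPKM. The day 7 samples held 26.70, 31.85, 24.28 (left out) and 21.49 FPKM, and the day 14 samples held 17.06, 28.36, 11.79 and 17.29 FPKM. Day 1 lay inside the range of sham, and the lowest sample of day 14 was still above the highest of sham. The sham mean of Csf1r was 5.26 ± 1.16 FPKM (SD, n = 4), and the day 7 mean was 26.7 ± 5.18 FPKM (SD, n = 3). The log2 fold change was 2.15 with an SE of 0.228 (limma, adjusted p = 0.00011), and the ratio of group means was 5.07. On day 14 the mean was 18.6 ± 6.97 FPKM (SD, n = 4), a ratio of 3.54 and a log2 fold change of 1.60 with an SE of 0.211 (limma, adjusted p = 0.000691). The day 7 call held with each sample left out in turn. The day 14 call moved past the 0.001 limit in 11 of 14 such fits, all except those without day 7 sample 4 or without day 14 sample 2 or 3, with log2 fold changes between 1.39 and 1.79. On day 1 the log2 fold change was 0.01, with a 95% confidence interval from -0.49 to 0.50.

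The ligand-to-receptor balance moved with the receptor. Il34 stood at 3.28 to 5.34 times the FPKM of Csf1r in the sham samples and at 4.09 to 5.29 times on day 1. On day 7 the ratio was between 0.919 and 1.46, and on day 14 between 1.03 and 2, with no overlap between either day and sham. Csf1 was close to Csf1r in sham, at 0.844 to 1.04 times its FPKM, and lay at 0.28 to 0.537 times on day 7 and 0.406 to 0.49 times on day 14. These are ratios of RNA levels and carry no test.

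**Figure D2:**
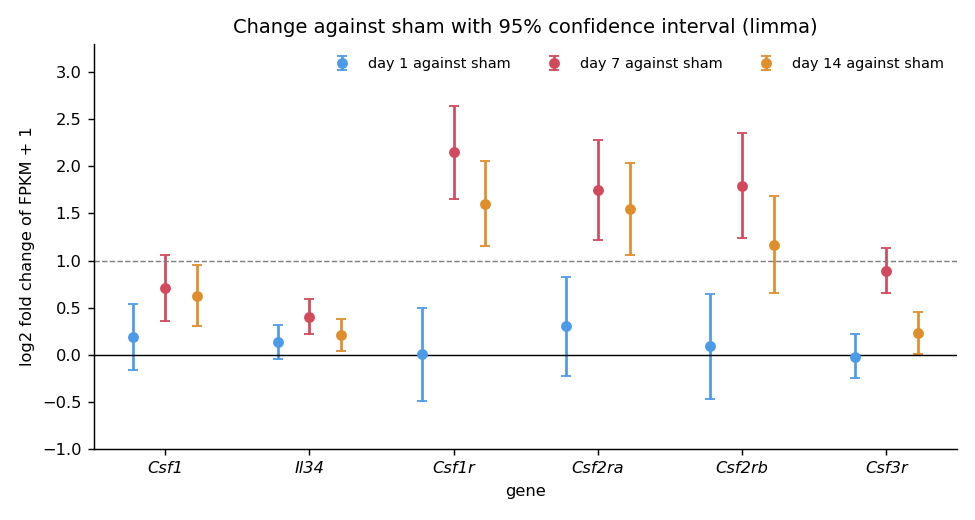
Log2 fold change of FPKM + 1 against sham (vertical axis) for the 6 members that could be fitted, with the 95% confidence interval from limma, on days 1, 7 and 14. The dashed line marks the fold limit of 1. Every day 1 interval includes 0, and on day 7 the intervals of Csf1r, Csf2ra and Csf2rb lie wholly above the dashed line.

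Macrophage markers moved with Csf1r. The summed FPKM of 15 macrophage genes, a list that leaves Csf1r out, ranged from 32.7 to 59.8 in sham, from 43.9 to 56.9 on day 1, from 355 to 480 on day 7 and from 176 to 670 on day 14. On day 7 all 15 rose at an adjusted p of at most 0.05 and 10 passed the cut-offs, and on day 14 the counts were 12 and 6. The matching shares of all genes were 14.5% and 1.83% on day 7 and 11.9% and 0.642% on day 14. Itgam and Msr1 reached the filter only through days 7 and 14. Cd68, a lysosomal protein of macrophages, rose by a log2 fold change of 3.01 on day 7 (limma, adjusted p = 0.000135), and the complement gene C1qa rose by 3.33 (limma, adjusted p = 0.00017). The log2(FPKM + 1) of Csf1r minus the mean of the 15 macrophage genes lay between 0.81 and 1.01 in sham, 0.83 and 0.98 on day 1, 0.62 and 0.95 on day 7, and 0.78 and 1.09 on day 14, so these 4 ranges overlapped. In bulk tissue, more cells of a type and more RNA per cell cannot be told apart.

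**Figure D3:**
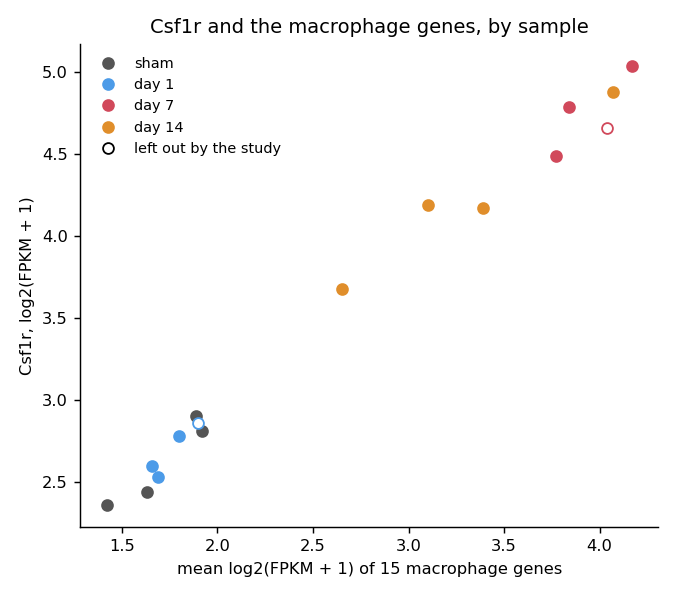
Csf1r (vertical axis) against the mean of 15 macrophage genes (horizontal axis), both in log2(FPKM + 1), with 1 point for each of the 16 samples colored by group. Open points are the samples left out by the study. The sham and day 1 samples lie together at the lower left, and the days 7 and 14 samples lie apart from them at the upper right, with day 14 sample 3 the lowest of these at 2.65 and day 14 sample 2 among the day 7 samples at 4.07 on the horizontal axis.

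Nerve injury markers of sensory neurons were examined because Csf1 is known to be induced in injured neurons. The summed FPKM of the 8 genes of this list, which leaves Csf1 out, lay between 222 and 289 in sham, 207 and 253 on day 1, 218 and 235 on day 7, and 230 and 273 on day 14, so the sums overlapped. Gap43 alone held 140 to 161 FPKM in sham, so the sum says little of the lower genes. In the fitted samples 1 of the 7 genes tested lay wholly above sham on day 7 and 2 wholly below it, against 3335 and 1413 of all 14023 genes. On day 14 these were 2 and 0, against 1938 and 755. Atf3, the transcription factor most often used as an injury marker, ranged from 3.82 to 12.2 FPKM in sham, from 7.10 to 14 FPKM on day 7 and from 6.13 to 13.6 FPKM on day 14. Its log2 fold change was 0.24 on day 7 (limma, adjusted p = 0.672) and 0.35 on day 14 (limma, adjusted p = 0.469). Of the 7 genes tested, 1 rose on day 7, Jun, by 0.28 (limma, adjusted p = 0.0245), and 1 rose on day 14, Gadd45a, by 0.26 (limma, adjusted p = 0.0217), a call that was lost over all 16 samples (limma, adjusted p = 0.157). These counts were near the shares of all genes, of which 14.5% rose on day 7 and 11.9% on day 14.

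Csf2, which encodes GM-CSF, was at or near the lower limit of the tables. It was listed at 0 in the 4 sham samples. On day 1 sample 4 held 0.09 FPKM and the rest 0, on day 7 samples 1 and 3 held 0.08 and 0.09 FPKM and the rest 0, and on day 14 samples 2 and 4 held 0.18 and 0.07 FPKM and the rest 0. The values above 0 thus occurred in 5 of the 12 TCI samples and in none of the sham samples, and they are too low to separate the groups. A two-sided exact permutation test over the 14 samples gave p = 0.857 for day 1, p = 0.857 for day 7 and p = 0.429 for day 14 against sham. The smallest p that 3 samples against 4 allow is 0.0571, and 4 against 4 allow 0.0286. No difference was detectable at this level.

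Csf2ra, the GM-CSF receptor alpha chain, was listed in sham at 4.17, 3.67, 5.55 and 5.01 FPKM. Day 1 gave 5.47, 6.47 (the sample left out), 6.18 and 5.92 FPKM. Day 7 gave 21.37, 19.16, 12.12 (the sample left out) and 13.50 FPKM, and day 14 gave 12.87, 27.89, 12.55 and 11.72 FPKM. All samples of days 7 and 14 were above every sample of sham and of day 1, and day 14 sample 2 was far above the other 3 of its group. The mean was 4.6 ± 0.841 FPKM (SD, n = 4) in sham and 18 ± 4.06 FPKM (SD, n = 3) on day 7. Csf2ra rose by a log2 fold change of 1.75 with an SE of 0.245 (limma, adjusted p = 0.000445). That adjusted p rose to between 0.00115 and 0.00388 when any 1 of the 4 sham samples or day 7 sample 1 or 2 was left out. On day 14 the log2 fold change was 1.55 with an SE of 0.227 and just missed the 0.001 limit (limma, adjusted p = 0.0011). Without day 14 sample 2 it was 1.27 and passed (limma, adjusted p = 0.000117), and over all 16 samples it passed as well (limma, adjusted p = 0.000845). The day 1 difference of 0.30 had a 95% confidence interval from -0.23 to 0.83 (limma, adjusted p = 0.976).

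Csf2rb, the common beta chain that transmits the signal of the GM-CSF, IL-3 and IL-5 receptors, was low in sham at 0.29, 0.08, 0.21 and 0.27 FPKM. On day 1 it was listed at 0.47, 0.19 (the sample left out), 0.25 and 0.15 FPKM. On day 7 it reached 3.35, 3.33, 3.64 (the sample left out) and 2.92 FPKM, and on day 14 1.37, 4.24, 0.86 and 1.4 FPKM. Every sample of days 7 and 14 was above every sample of sham and of day 1. The ratio of group means was 15.1 on day 7 and 9.26 on day 14, the highest among the members, against a sham mean of only 0.212 FPKM. On the log2(FPKM + 1) scale, which understates the change of low genes, the difference was 1.79 on day 7 with an SE of 0.258 (limma, adjusted p = 0.000536) and 1.17 on day 14 with an SE of 0.239 (limma, adjusted p = 0.0065). The day 7 adjusted p exceeded 0.001 in 10 of 14 fits with 1 sample left out, all except those without a day 14 sample, and reached at most 0.00399. With a pseudocount of 0.1 in place of 1 the log2 differences were 3.46 and 2.54.

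The alpha and beta chains differed in level in every group. Csf2ra exceeded Csf2rb in all 16 samples, by 14.4 to 45.9 times in sham and 11.6 to 39.5 times on day 1. The ratio was 3.33 to 6.38 on day 7 and 6.58 to 14.6 on day 14, where the upper end reached the lower end of sham. Relative to Csf1r, Csf2ra was within 0.22 on the log2(FPKM + 1) scale in each sham sample and was 0.31 to 0.95 lower on day 7.

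Csf3r, the G-CSF receptor, was under the fold limit of the study on days 7 and 14 on the log2(FPKM + 1) scale, which understates the change of a gene as low as this. It was listed at 0.62, 0.69, 0.57 and 0.53 FPKM in sham and at 0.48, 0.48 (the sample left out), 0.62 and 0.66 FPKM on day 1. On day 7 it was listed at 1.84, 1.85, 1.19 (the sample left out) and 2.25 FPKM, and on day 14 at 0.75, 1.31, 0.71 and 0.80 FPKM. Day 1 overlapped sham, day 7 lay above it, and 3 of the 4 day 14 samples lay only just above it. The ratio of group means was 3.29 on day 7, and the log2 fold change of 0.89 had an SE of 0.11 (limma, adjusted p = 0.000219). In 1 alternative fit the day 7 change of Csf3r passed the cut-offs. On day 14 the log2 fold change was 0.23 with a 95% confidence interval from 0.01 to 0.45 (limma, adjusted p = 0.149), and it turned to -0.04 with quantile scaling.

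Neutrophil genes had their highest sum on the same day as Csf3r. The summed FPKM of 12 neutrophil genes, a list that leaves Csf3r out, lay between 0.45 and 1.09 in sham, 0.78 and 1.42 on day 1, 4.45 and 18.4 on day 7, and 1.28 and 2.99 on day 14. S100a9, a calcium-binding protein that is abundant in neutrophils and monocytes, was the only one tested, having reached the filter through its day 7 values, and rose by a log2 fold change of 2.20 on day 7 (limma, adjusted p = 0.00109). Over all 16 samples 2 of the 12 were tested, both rose on day 7 and 1 passed the cut-offs. The second was S100a8, which also reached the filter through its day 7 values. In every day 7 sample 10 of the 12 stayed under 1 FPKM, while S100a9 and S100a8 had medians of 4.3 and 4 FPKM against 10.5 for the sum. S100a8 lay between 0 and 0.13 FPKM in sham and between 0.62 and 6.82 FPKM on day 7. The granule gene Mpo was listed at 0 in the sham samples and between 0.02 and 0.14 FPKM on day 7. Ltf, another granule gene, was at or under 0.03 FPKM in all 16 samples and at 0 on day 7. Day 7 sample 3 had the lowest Csf3r of its group and the second-highest neutrophil sum, 14.1. The part of neutrophils in the Csf3r result was not tested.

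For a view of the promoters, the 250 bases before the RefSeq transcript start (build GRCr8) were available for 4 of the 7 members, Csf1r, Csf2, Csf2ra and Csf3r. The core of the binding motif of PU.1, the myeloid transcription factor encoded by Spi1, was searched as GAGGAA on both strands, and the C/EBP motif as TTGCNNAA on both strands. The PU.1 core occurred in 23.3% of all 33469 promoters of this length and in all 4 of the members, and the C/EBP motif occurred in 9.22% and in none of the members. The promoters of Csf2ra (chr14:118118-118367, minus strand) and of Csf3r (chr5:143582970-143583219, plus strand) are shown because they carry the core on the strand of the gene, with the core in capitals.
Csf2ra: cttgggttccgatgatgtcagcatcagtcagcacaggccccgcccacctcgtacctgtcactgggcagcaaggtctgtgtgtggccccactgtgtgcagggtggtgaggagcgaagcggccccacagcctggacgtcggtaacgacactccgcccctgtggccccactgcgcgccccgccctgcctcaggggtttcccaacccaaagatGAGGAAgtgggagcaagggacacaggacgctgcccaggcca
Csf3r: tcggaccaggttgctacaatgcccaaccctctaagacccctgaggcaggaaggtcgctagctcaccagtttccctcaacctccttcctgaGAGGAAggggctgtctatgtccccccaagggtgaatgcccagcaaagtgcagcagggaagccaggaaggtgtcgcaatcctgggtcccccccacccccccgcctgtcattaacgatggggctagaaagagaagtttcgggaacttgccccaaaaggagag
The core lay 41 to 36 bases before the start in Csf2ra and 160 to 155 bases before it in Csf3r. In Csf1r it lay on the other strand, 229 to 224 and 95 to 90 bases before the start, and in Csf2 on the other strand 77 to 72 bases before the start. The Csf2 promoter held the same letters while its RNA was close to 0. The letters GGAA within the core are shared by other factors of the ETS family. A match of letters is a description of the sequence and does not show binding.

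The remaining genes of these pathways were read from a list of 38, of which 33 could be tested. On day 7, 4 passed the cut-offs of the study, against 1.83% of all genes. At an adjusted p of at most 0.05, 18 rose, against 14.5% of all genes, and none fell, against 3.45%. The median log2 fold change was 0.48 against 0.04 for all genes tested. Fgr, Pik3cg, Plcg2 and Vav1 reached the filter only through days 7 and 14, which leans these counts and medians upward. Over all 16 samples, 8 passed the cut-offs on day 7, 19 rose and 1 fell. On day 14, 1 passed the cut-offs and 15 rose (2 and 13 over all 16 samples), against 0.642% and 11.9% of all genes. The median was 0.37 against 0.03. On day 1 none was called and the median was 0.02. The day 7 count of 4 ranged from 1 to 10 when samples were left out in turn. Many of these genes are known to be expressed mainly in myeloid cells, whose macrophage markers rose on the same days, and the part of cell number in their values was not tested.

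By role, 10 of the 18 genes that rose on day 7 belonged to receptor-proximal signaling and 6 to the transcription factors. Of 14 signaling genes, 4 of them limited by the filter as named above, 10 rose on day 7 and 9 on day 14. Over all 16 samples these counts were 10 and 8. Of all genes, 14.5% rose on day 7 and 11.9% on day 14 in the fit of 14 samples. Tyrobp, the DAP12 adaptor of myeloid receptors, went from a mean of 5.27 FPKM in sham to 44.4 FPKM on day 7, a log2 fold change of 2.85 (limma, adjusted p = 7.55e-05), and to 30.7 FPKM on day 14, a log2 fold change of 2.19 (limma, adjusted p = 0.000403). Vav1, a guanine nucleotide exchange factor of blood cells, rose by 1.66 on day 7 (limma, adjusted p = 0.000874). The Src-family kinases Lyn and Fgr rose by log2 fold changes of 1.69 and 1.57 on day 7. Ptpn6, the SHP-1 phosphatase that dampens receptor signaling, rose by 2.04 (limma, adjusted p = 0.00162), and Inpp5d, the SHIP-1 lipid phosphatase, by 0.69 (limma, adjusted p = 0.0112). Over all 16 samples Ptpn6, Lyn and Fgr also passed the cut-offs on day 7 (limma, adjusted p = 0.00031, 0.000592 and 0.000866), and the day 14 call of Inpp5d was lost (limma, adjusted p = 0.0537). The phosphoinositide kinases Pik3cd and Pik3cg and the receptor Trem2 also rose on day 7, by 0.48, 0.86 and 1.45. The broadly expressed adaptors Grb2 and Sos1 and the ubiquitin ligase Cbl did not pass, with differences of -0.03, -0.17 and -0.02.

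Of 8 transcription factors tested, 6 rose on day 7 and 4 on day 14 (5 and 4 over all 16 samples), against 14.5% and 11.9% of all genes. Spi1, which encodes PU.1, rose from a mean of 1.72 to 10.9 FPKM on day 7, a log2 fold change of 2.12 (limma, adjusted p = 0.000405), and by 1.86 on day 14 (limma, adjusted p = 0.00104, and 0.000506 over all 16 samples, past the cut-offs). Irf8, a factor of monocytes and dendritic cells, rose by 2.28 on day 7 (limma, adjusted p = 0.00142, and 0.000347 over all 16 samples, past the cut-offs). Cebpa, a factor of granulocyte and monocyte differentiation, rose by 1.16 (limma, adjusted p = 0.000627) and passed the cut-offs. Cebpb and Runx1 rose by 0.72 and 0.21, and over all 16 samples Runx1 differed by 0.10 and lost its call (limma, adjusted p = 0.438). Maf and Mitf did not pass, at 0.10 and 0.16.

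The JAK-STAT genes that carry the signal of the GM-CSF and G-CSF receptors were called at a share near that of all genes, of which 14.5% rose on day 7 and 11.9% on day 14. Of 8 tested, 1 rose on day 7 and 1 on day 14, in both cases Socs3, the feedback inhibitor of cytokine receptors, by log2 fold changes of 0.76 (limma, adjusted p = 0.00426) and 0.49 (limma, adjusted p = 0.0325). Socs1 differed by 1.03 on day 7 and just missed the threshold (limma, adjusted p = 0.0507). Over all 16 samples Socs1 passed at 1.43 (limma, adjusted p = 0.018) and Jak2 at 0.51 (limma, adjusted p = 0.0379), which makes 3 of 8 on day 7, and the day 14 call of Socs3 was lost (limma, adjusted p = 0.131). The kinases Jak1 and Jak2 and the factors Stat3, Stat5a and Stat5b differed by 0.11, 0.34, 0.02, 0.07 and 0.09 on day 7 in the fit of 14 samples, none of them past the threshold there. Of the other ligands and receptors, Csf3, Il3, Il5 and Il5ra were too low to be tested. Il3ra, the partner of the common beta chain for IL-3, rose by 0.47 on day 7 (limma, adjusted p = 0.00921) and by 0.37 on day 14 (limma, adjusted p = 0.0266). Ptprz1, a further receptor of IL-34, differed by -0.33 on day 7 (limma, adjusted p = 0.0746) and was called lower over all 16 samples, at -0.32 (limma, adjusted p = 0.0467).

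**Figure D4:**
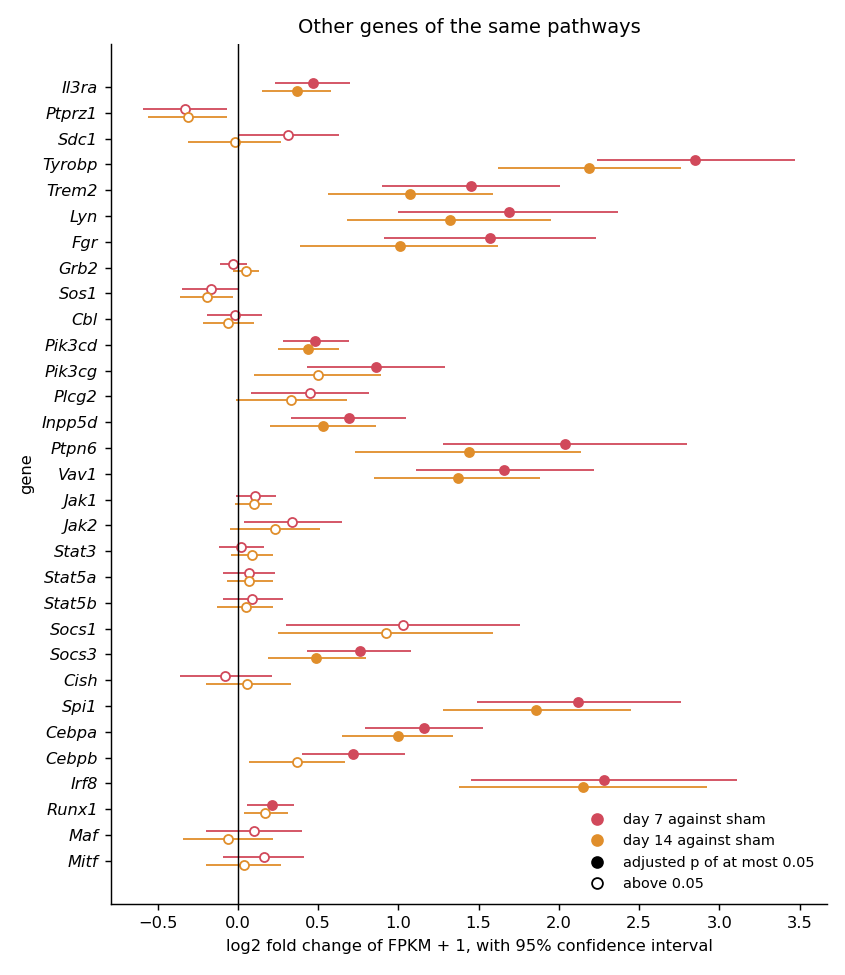
Log2 fold change of FPKM + 1 against sham (horizontal axis, with the 95% confidence interval from limma) of 31 of the 33 other pathway genes that could be tested, on days 7 and 14. Filled points have an adjusted p of at most 0.05. Filled points lie to the right of 0, from Runx1 at 0.21 to Tyrobp at 2.85 on day 7, and no gene to the left of 0 is filled.

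Between day 14 and day 7, 1 member differed at an adjusted p of at most 0.05, Csf3r, against 0.0998% of all genes, and none passed the cut-offs, against 0.0143%. Csf3r reached the filter of 1 FPKM only through samples of days 7 and 14, so its test is not independent of its values there. Csf3r was lower on day 14 by a log2 fold change of -0.66 with an SE of 0.11 (limma, adjusted p = 0.0441), and every day 14 sample of the fit lay below every day 7 sample of the fit. Of the 14023 genes tested, 595 lay wholly lower in this way and 391 wholly higher. Day 7 sample 3, left out by the study, had 1.19 FPKM and fell below day 14 sample 2 at 1.31 FPKM. Over all 16 samples the difference was -0.55 (limma, adjusted p = 0.144), and the adjusted p exceeded 0.05 in 13 of 14 fits with 1 sample left out. The exception was the fit without day 14 sample 2, where Csf3r differed by -0.76 (limma, adjusted p = 0.00135) and Csf2rb by -0.93 (limma, adjusted p = 0.00423). With all 4 day 14 samples Csf2rb differed by -0.62 (95% confidence interval -1.18 to -0.06) and Csf1r by -0.54 (-1.04 to -0.05), and neither passed, with limma adjusted p of 0.449 and 0.452. Csf2ra, Il34 and Csf1 differed by -0.21, -0.19 and -0.09.

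Day 14 sample 2 held the highest value of its group for each of the 7 members and the highest macrophage sum, 670 against 176 to 277 in the other 3. Without it the day 14 log2 fold changes against sham were 0.46 for Csf1, 0.15 for Il34, 1.39 for Csf1r, 1.27 for Csf2ra, 0.86 for Csf2rb and 0.13 for Csf3r. With it they were 0.62, 0.21, 1.60, 1.55, 1.17 and 0.23 in the same order. The members called at an adjusted p of at most 0.05 numbered 4 in both fits.

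Ordered by mean FPKM over all 16 samples, the members ran Il34, Csf1r, Csf1, Csf2ra, Csf3r, Csf2rb and Csf2 in sham. The sham levels of Csf1r, Csf1 and Csf2ra did not differ beyond their spread. On day 1 the order was Il34, Csf2ra, Csf1, Csf1r, Csf3r, Csf2rb and Csf2, with the means of Csf2ra, Csf1 and Csf1r between 5.49 and 6.01 FPKM. On days 7 and 14 the order was Il34, Csf1r, Csf2ra, Csf1, Csf2rb, Csf3r and Csf2. Csf2rb stood below Csf3r in all 4 sham and all 4 day 1 samples and above it in all 8 samples of days 7 and 14. Il34 and Csf1r were close on day 7, where Csf1r was the higher of the pair in 1 of 4 samples, and Csf1r was within 0.939 to 1.48 times Csf2ra on day 14.

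Other cell type lists gave context for the same comparisons. At an adjusted p of at most 0.05, 14.5% of all genes tested rose and 3.45% fell on day 7. The shares on day 14 were 11.9% and 3.21%. On day 7, at an adjusted p of at most 0.05, all 9 tested T cell genes rose, of which 8 reached the filter only through days 7 and 14. In the same comparison, 3 of 7 fibroblast and 3 of 8 endothelial genes rose, 2 of 7 satellite glia genes rose and 1 fell, and 4 of 13 neuron genes fell. Of 4 tested dendritic cell genes 1 rose and 1 fell, 1 of 3 red blood cell genes fell, and none of 8 Schwann cell and 5 muscle genes was called. Among the dendritic cell genes, Itgax reached the filter only through days 7 and 14, which leans the dendritic cell counts of both days upward. On day 14 all 9 T cell genes and 2 of 4 dendritic cell genes rose, 3 of 13 neuron, 2 of 7 satellite glia and 1 of 8 Schwann cell genes fell, and 1 of 7 fibroblast genes rose and 1 fell. No endothelial, muscle or red blood cell gene was called on day 14. Over all 16 samples, 5 neuron and 2 Schwann cell genes fell on day 7, and no neuron or Schwann cell gene fell on day 14. The part of each of these cell types in the values of the members was not tested.

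Likeness to each member was scored by the Pearson correlation (r) across the 14 fitted samples on the log2(FPKM + 1) scale, as a description without a test, since the samples fall into groups and all points share libraries. The genes most like Csf1r were Clec4a1, Ms4a7 and Btk, at r of 0.996, 0.993 and 0.993, and at 0.952, 0.938 and 0.956 after group means were removed. Csf1 was closest to Bak1 (0.982, and 0.941 with group means removed), Ppp1r18 and Parp9, and Il34 to Pold4 (0.938 and 0.854), Gnai2 and Clic1. Csf2ra was closest to Cyba (0.988 and 0.938), Bcl2a1 and Lsp1, and Csf2rb to Nfam1 (0.987 and 0.918), Srgn and Apol11a. For Csf3r the closest were Gzma, Pla2g2a and Msr1, at 0.963, 0.955 and 0.942, which came to 0.616, 0.365 and 0.463 with group means removed, the lowest such values among the members.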

How the data were processed

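Gene expression in DRGs was measured by RNA sequencing of 16 samples. The labels name Illumina library protocols, and the study's methods name a BGISEQ sequencing platform. The authors aligned reads with HISAT and Bowtie2, estimated expression with RSEM and deposited FPKM values per gene with 2 decimals. The genome build, the annotation and the versions of the aligners are not given in the sources used here. The submitters' processing notes name CASAVA 1.4 and Bowtie2. Groups were taken from the sample labels. FPKM was transformed as log2(FPKM + 1), and every gene that reached 1 FPKM in 3 or more fitted samples was tested over 14 samples with limma 3.58.1 in R 4.3.3. A model with 1 mean for each of the 4 groups was fitted with moderated variances that follow the mean level, and p-values were adjusted by Benjamini-Hochberg over all 14023 genes. Calls used the cut-offs of the study or an adjusted p of at most 0.05. Csf2, under the filter, was tested by an exact permutation test. Identical values above 0 made up at most 2.67% between any pair of samples, so none was a copy.

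The members and lists were chosen with earlier results of these data known. All 7 members are named, other pathway genes past either call with examples of the rest, up to 4 genes from each marker list, and the 3 genes most correlated with each member. Of the tested pathway genes, 2 are counted but not reported here by name. Gene identifiers of all 7 members carried the same symbols in RefSeq. The fit was checked on simulated data. Alternatives covered the samples, scaling, filter, pseudocount, variance model, sample number as a block and leaving out each sample.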

Additional observations from a re-analysis of the deposited data

Results flagged for a closer look

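Among 27 sets of 4 samples of 1 member in 1 group, 5 had a highest or lowest sample whose gap to its neighbor exceeded Dixon's 95% critical value for the share of the range, where chance gives about 1 in 20. In 3 of the 5 the sample was day 14 sample 2, with 27.9 FPKM for Csf2ra (0.929 of the range), 4.24 FPKM for Csf2rb (0.84) and 1.31 FPKM for Csf3r (0.85). The other sets were Csf1 on day 1, where sample 1 was the lowest at 5.06 FPKM (0.969), and Csf2 on day 1, where sample 4 held 0.09 FPKM and the other 3 were listed at 0 (a gap of 1). With 3 values at 0 the gap is 1 whatever the fourth value. The sets also share libraries, so the count of 5 cannot be compared with the 1 in 20 of independent sets.

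Csf3r differed between days 14 and 7 by a test of that difference itself, with a log2 fold change of -0.66 (limma, adjusted p = 0.0441). It reached the filter only through samples of these 2 days, so the test is not independent of how the gene entered the fit. The call was lost over all 16 samples (limma, adjusted p = 0.144) and in 13 of 14 fits with 1 sample left out.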

How the results depend on the processing

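The alternatives limited the strict calls more than the directions. Members past the cut-offs on day 7, 3 as reported, numbered 1 with no filter and 1 with the replicate block, and 1 to 3 with single samples left out. They numbered 4 in 1 alternative, where Csf3r passed as well. On day 14, 1 as reported, they numbered 0 with only 2 groups fitted, no variance trend, no filter or the replicate block, 2 with all 16 samples, a mean filter of 5 FPKM or a pseudocount of 0.1, 3 with array weights, and 0 to 2 with samples left out. The single member called at 0.05 between days 14 and 7 was lost (0 called) with 16 samples, 2 groups fitted, quantile or total scaling, the mean filter, the pseudocount of 0.1 or the replicate block, and 0 to 2 were called with samples left out. For day 7 against sham, all 6 fitted members stayed called at 0.05 in every alternative fit except the mean filter of 5 FPKM. Under that filter Csf2rb and Csf3r were too low to be tested, and the 4 members left were all called. The highest adjusted p of any member for day 7 was 0.0351 (limma), for Csf1. For day 14 the count called at 0.05 varied between 3 and 5.

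Pathway genes past the cut-offs on day 7, 4 as reported, numbered 8 with 16 samples, 10 with 2 groups, 2 with quantile or total scaling or the mean filter, 1 with no filter or the replicate block, 11 with array weights, and 1 to 10 with samples left out. On day 14, 1 as reported, they numbered 2 with 16 samples or the mean filter, 0 with 2 groups, no filter or the replicate block, 5 with the pseudocount of 0.1, 9 with array weights, and 0 to 4 with samples left out. Over all genes, 257 calls on day 7 became 112 with the replicate block, 593 with array weights and 49 (without day 7 sample 1) to 471 (without day 14 sample 2) with samples left out. The 90 calls on day 14 became 4 with 2 groups, 277 with array weights and 15 (without sham sample 1 or 2) to 173 (without day 14 sample 2) with samples left out, and the shares of all genes called move with these counts.

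Reversed signs occurred only in differences near 0: Csf1r on day 1 at -0.01 with total scaling and as a ratio of means and at -0.08 to 0.1 with samples left out, Csf2rb on day 1 at -0.01 to 0.16 with samples left out, Csf3r on day 1 at 0.02 with the replicate block and at -0.05 to 0.03 with samples left out, Csf3r on day 14 at -0.04 with quantile scaling, and Csf1 between days 14 and 7 at 0.04 without day 14 sample 3 (-0.25 to 0.04 with samples left out). Quantile scaling moved the median of all genes by -0.11 on day 7. Csf1r minus the macrophage mean, -0.12 on day 7 and 0.01 on day 14 relative to sham, was -0.42 and -0.16 with a pseudocount of 0.1. Except where a setting itself changes the genes or samples fitted, the cause was not tested.

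Sample numbers did not pair the animals, with correlations of deviations between same-numbered samples from -0.0952 to 0.269. FPKM holds no read depth, which limits what can be said of Csf2, Csf2rb and Csf3r.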
